A study of Drosophila melanogaster with 9 samples.

Results

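The genes described here are the ecdysone receptor gene EcR, its partner usp, and 8 genes for transcription factors of the ecdysone response: br, Eip74EF, Eip75B, Eip78C, Hr39, Hr4, ftz-f1 and Eip93F. They were chosen by name, and all 10 were found among the 15602 genes listed for each library. Ecdysone is the steroid hormone that times moulting and metamorphosis in flies, and in the adult female it also acts on the ovary. The hormone binds EcR, a nuclear receptor that works on DNA as a heterodimer with usp, the fly member of the retinoid X receptor family. The loaded receptor turns on a small set of early genes, whose products are themselves transcription factors and go on to activate or repress later targets. In the ovary this cascade is known for its part in the passage of follicles through mid-oogenesis, when yolk uptake begins, and in the patterning and secretion of the eggshell.

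Poly(A) RNA of staged ovarian follicles (egg chambers, each an oocyte with its nurse cells inside a follicle cell epithelium) of adult Drosophila melanogaster females was sequenced in 9 libraries of 100 follicles each. There were 3 libraries of wild-type stage 8 follicles, 3 of wild-type stage 10 follicles and 3 of stage 10 follicles from females with a temperature-sensitive EcR mutation (EcRts). All samples carry the strain label Oregon R, also the EcRts samples, and come from fertilized females of 6 to 14 days by the age label or from 4 days by the growth protocol. The females were held at 25 °C with rich food for 36 h, and the EcR mutants were moved to a restrictive temperature 2 days after eclosion, so that genotype and temperature cannot be told apart in any comparison with EcRts. The EcR alleles, the restrictive temperature and whether the 3 samples of a group are separate sets of animals are details not stated in the labels used here. If they are not separate, the p-values measure technical spread. Stage 8 is the onset of yolk uptake, and at stage 10 the follicle cells are laying down the eggshell.

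The deposited values are FPKM, fragments scaled by transcript length and library total, summed over the transcripts of a gene. Their confidence limits imply 18.6 to 21.7 M fragments per wild-type stage 8 library, 17.5 to 21.3 M per wild-type stage 10 library and 27.2 to 33.3 M per EcRts library, so that this implied depth moves with the EcRts group. It takes the limits as 2 errors of a count, which can fail for single values. For Eip75B, at like FPKM, it was 75 fragments in wild-type stage 10 replicate 1 against 816 and 782 in replicates 2 and 3. Markers of the germline were at 1 FPKM or more in every group (7 of 7), as were 7, 6 and 7 of the 7 follicle cell markers at stage 8, wild-type stage 10 and EcRts. None of 5 neuron markers reached a mean of 1 FPKM (0 of 5), and of 6 hemocyte markers 1 did, srp, while He was at 0 in all 9 libraries. Muscle sheath markers summed to 6.19 to 11.4 FPKM at stage 8, 10.9 to 14.4 at wild-type stage 10 and 18.7 to 25.1 in EcRts, with 3, 3 and 7 of 8 markers at a mean of 1 FPKM or more. The 6 fat body markers summed to 5.73 to 6.57, 11.2 to 20.3 and 6.58 to 18.1 FPKM in that order. Only 2 of the 6 reached a mean of 1 FPKM in any group, Rfabg (3.03, 9.44 and 7.72 FPKM) and Lsd-1 (2.82, 4.63 and 2.52). A set of 5 genes that are high in later follicles (Cp15, Cp16, Cp18, Cp19 and Mmp2) summed to 261 to 1227 FPKM at stage 8, 3878 to 6204 at wild-type stage 10 and 1718 to 2243 in EcRts. In whole follicles a smaller number of cells of a type and less RNA per cell cannot be told apart.

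All 90 values of the 10 genes (10 genes in 9 libraries) had the status OK, and the deposited confidence interval was within 15% of the value on each side in 79 of them. The least precise values were those of Eip78C at stage 8, which rest on an implied 13 to 74 fragments, with limits 23.2% to 54.8% away from the value. The 10 genes together summed to 165 to 175 FPKM at stage 8, 186 to 209 at wild-type stage 10 and 187 to 193 in EcRts. Since FPKM is per transcript length, levels of different genes can be set side by side. ftz-f1 (51.3 FPKM) and usp (41.5 FPKM) had the highest mean levels at stage 8, and Eip78C the lowest (0.516 FPKM). The order at stage 8 was ftz-f1, usp, Eip75B, EcR, br, Hr39, Eip74EF, Hr4, Eip93F and Eip78C, where br and Hr39 overlapped, as did Hr4 and Eip93F. At wild-type stage 10 it was ftz-f1, usp, EcR, Hr39, Eip75B, Eip74EF, br, Eip93F, Hr4 and Eip78C, and the neighbours EcR and Hr39, Eip74EF and br, and Eip93F and Hr4 overlapped. In EcRts usp stood above ftz-f1 without overlap, followed by EcR, Hr39, Eip75B, br, Eip74EF, Hr4, Eip78C and Eip93F, with overlap between EcR and Hr39, Eip74EF and Hr4, and Eip78C and Eip93F.

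**Figure D1:**
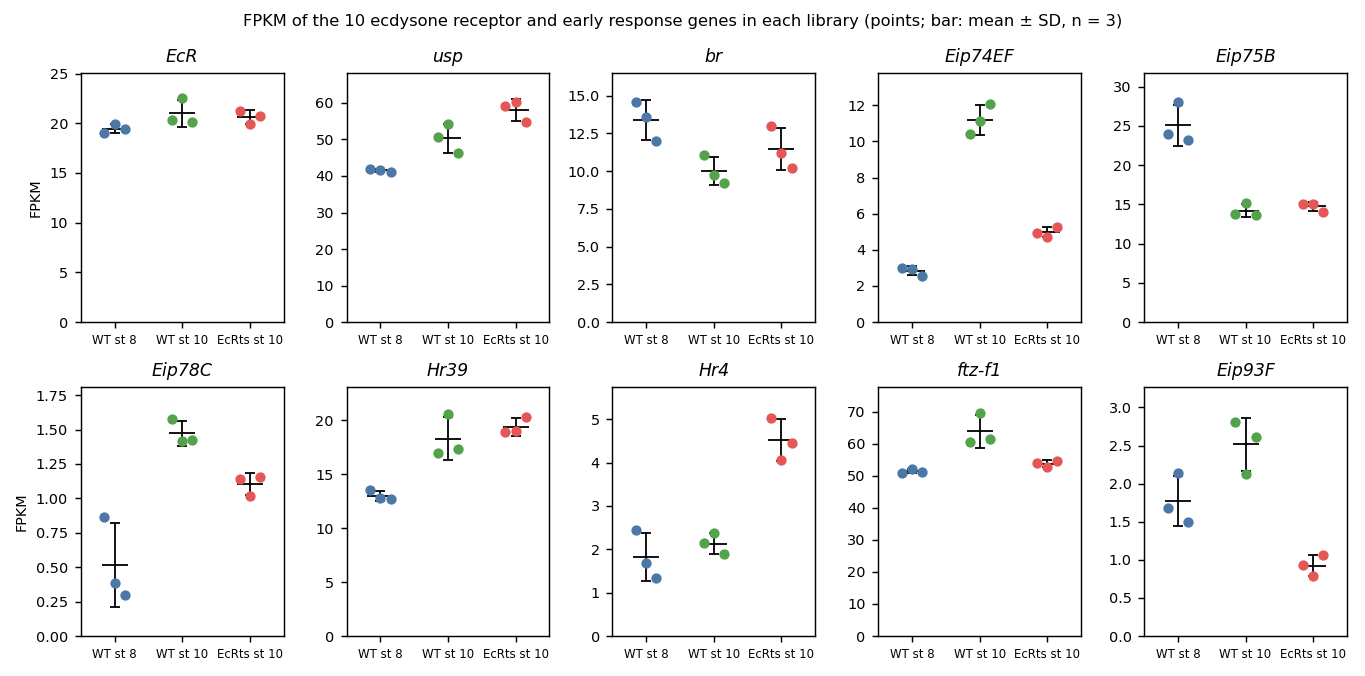
FPKM of each of the 10 genes (vertical axis, from 0, a separate scale per gene) in the wild-type stage 8, wild-type stage 10 and EcRts stage 10 libraries; points are libraries and bars are mean ± SD (n = 3). Eip74EF runs from 2.83 FPKM at stage 8 to 11.2 at wild-type stage 10 and 4.97 in EcRts, while the EcR libraries all lie between 19.0 and 22.6.

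EcR, the gene named by the mutant label, lies on chromosome 2R at 1975378 to 2056592 (dm3, as all positions here). Its level was 19.0, 19.9 and 19.4 FPKM in the stage 8 libraries, 20.3, 22.6 and 20.1 at wild-type stage 10, and 21.2, 19.9 and 20.8 in EcRts. The EcRts libraries lie within the range of the wild-type stage 10 libraries except for replicate 2, and overlap them. A temperature-sensitive mutation changes a protein, so this level does not check the label. The difference between EcRts and wild-type stage 10 was −0.02 on the log2(FPKM + 1) scale (95% interval −0.15 to 0.10, adjusted p = 0.731), and its sign turned under each of 4 other library scalings. Stage 10 stood 0.11 above stage 8 in the wild type (adjusted p = 0.117), with no overlap between the groups. That sign also turned, to −0.12 and −0.17, with median-of-ratios scaling and quantile normalization. These and all later adjusted p-values are from limma, fitted on log2(FPKM + 1) over 8336 genes, with Benjamini-Hochberg adjustment, and a gene is said to rise or fall at an adjusted p under 0.05.

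usp encodes the receptor's partner (chromosome X, 1932829 to 1936344). Its values were 42.0, 41.5 and 41.1 FPKM at stage 8, 50.7, 54.1 and 46.2 at wild-type stage 10, and 59.2, 60.2 and 54.8 in EcRts. The groups do not overlap: every EcRts library is above every wild-type one, and every stage 8 library is lowest. usp rose by 0.27 from stage 8 to stage 10 (SE 0.0616, adjusted p = 0.00463) and was 0.20 higher again in EcRts than in wild-type stage 10 (SE 0.0616, adjusted p = 0.0291). Under median-of-ratios scaling the stage call was lost (adjusted p = 0.529), as it was after quantile normalization (0.463). The EcRts call held under 4 other scalings, at 0.32 to 0.40, but 4 of the 9 fits that leave out 1 library did not keep it. Those were the fits without replicate 1 (adjusted p = 0.0641) or 3 (0.0709) of wild-type stage 10, and without replicate 1 (0.0808) or 2 (0.0922) of EcRts. With only the 2 groups compared the call was lost as well (adjusted p = 0.0577). usp shares 265 of its 3038 exonic bases (8.72%, current annotation) with Actn on the same strand, a gene for the actin cross-linker alpha-actinin at 39.5, 56.1 and 47.9 FPKM in the 3 groups. Fragments of that stretch could be given to either gene.

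Because both receptor genes were measured in the same libraries, their ratio is not changed by any single scale factor for a library. This ratio was taken up after the data were seen and is given without a test. EcR stood at 0.453, 0.480 and 0.472 of the usp level at stage 8, at 0.401, 0.417 and 0.436 at wild-type stage 10, and at 0.358, 0.330 and 0.379 in EcRts. The 3 groups do not overlap, and the ratio is lowest in EcRts. The log2 ratio differed by −0.17 between wild-type stage 10 and stage 8 and by −0.23 between EcRts and wild-type stage 10.

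The early genes br, Eip74EF and Eip75B lie at the head of the response. Eip74EF, which encodes an ETS-domain transcription factor (chromosome 3L, 17551772 to 17612425), showed the widest range of group means of the 10 on the log2(FPKM + 1) scale. It was at 3.01, 2.95 and 2.54 FPKM at stage 8, at 10.4, 11.1 and 12.0 at wild-type stage 10, and at 4.94, 4.70 and 5.26 in EcRts. All 3 groups stand apart, with EcRts between the wild-type stages. Its mean level at wild-type stage 10 was 3.95 times that at stage 8, a rise of 1.67 on the log2(FPKM + 1) scale (SE 0.0819, adjusted p = 4.14e-06). In EcRts it was at 0.444 of the wild-type stage 10 level, a fall of 1.03 (SE 0.0819, adjusted p = 1.12e-04), and 0.64 above stage 8 (adjusted p = 3.10e-04). All 3 calls held under every alternative run. Among the 8336 genes tested, the size of its stage change was at percentile 96.5 and that of its EcRts change at 92.3. The summed level of the later-follicle genes given above has the same order across the groups, as has srp (6.54, 20.8 and 7.94 FPKM), and their part in the Eip74EF result was not tested.

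Eip75B, which encodes a heme-binding nuclear receptor (chromosome 3L, 17944053 to 18057796), went the other way with stage. Its levels were 23.9, 28.1 and 23.2 FPKM at stage 8, 13.7, 15.2 and 13.7 at wild-type stage 10, and 15.1, 15.1 and 14.1 in EcRts. Both stage 10 groups are below all stage 8 libraries and overlap each other. Eip75B fell by 0.78 from stage 8 to wild-type stage 10 (SE 0.0784, adjusted p = 5.99e-05), to 0.566 of its mean level. EcRts differed from wild-type stage 10 by 0.05 (95% interval −0.13 to 0.23, adjusted p = 0.614). One of its wild-type stage 10 values, that of replicate 1, has a wide deposited interval of 10.6 to 16.9 FPKM.

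The ratio of these early genes within a library restates their opposite courses with stage, and it was taken up because they were seen, so it is given without a test. Eip74EF was at 0.126, 0.105 and 0.110 of the Eip75B level at stage 8, at 0.757, 0.734 and 0.882 at wild-type stage 10, and at 0.327, 0.312 and 0.374 in EcRts. No group overlaps another. The log2 ratio was 2.80 higher at wild-type stage 10 than at stage 8, and 1.23 lower in EcRts than in wild-type stage 10 (−1.23).

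**Figure D2:**
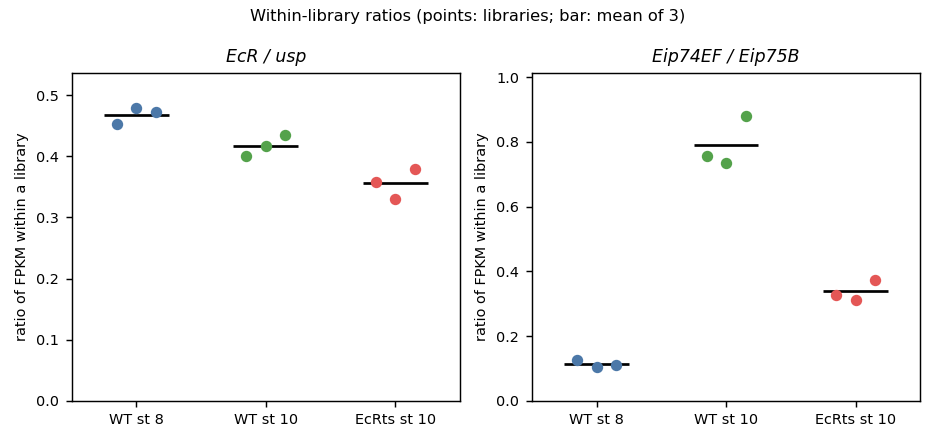
Ratio of EcR to usp FPKM (left) and of Eip74EF to Eip75B FPKM (right) within each library, on vertical axes from 0; points are libraries and bars are means of 3. The EcR to usp ratio steps down from 0.453 to 0.480 at stage 8 to 0.330 to 0.379 in EcRts, and the Eip74EF to Eip75B ratio peaks at wild-type stage 10 with 0.734 to 0.882.

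br, the Broad-Complex, encodes a family of zinc finger proteins that in the ovary are known from follicle cells that make the dorsal eggshell appendages (chromosome X, 1469165 to 1558902). It was at 14.6, 13.6 and 12.0 FPKM at stage 8, at 11.1, 9.76 and 9.22 at wild-type stage 10, and at 13, 11.2 and 10.2 in EcRts. The wild-type stages do not overlap, while EcRts overlaps both. br fell by 0.38 with stage (SE 0.106, adjusted p = 0.0118), and the call held under every alternative. The difference of 0.18 between EcRts and wild-type stage 10 did not pass (adjusted p = 0.202), but reached 0.36 and passed when libraries were scaled on protein-coding genes (adjusted p = 0.0301) or outside eggshell, yolk and noncoding genes (0.039). With a replicate block the 0.18 passed too (adjusted p = 0.0375). Against stage 8, EcRts was at −0.21 (adjusted p = 0.127). That difference passed with the block (0.0158), median-of-ratios scaling (0.0308), quantile normalization (0.0122) and without EcRts replicate 1 (0.0490). In each group br fell from replicate 1 to replicate 3. br overlaps Mur2B on the opposite strand in 189 of its 20201 exonic bases (0.94%), and the library kit does not mark strand. Mur2B was at 16.1, 57.6 and 22.9 FPKM in the 3 groups.

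Eip78C encodes a nuclear receptor related to Eip75B (chromosome 3L, 21219709 to 21259603) and was the least abundant of the 10 at stage 8. Its levels were 0.861, 0.383 and 0.302 FPKM at stage 8, 1.58, 1.42 and 1.43 at wild-type stage 10, and 1.14, 1.01 and 1.16 in EcRts. It reached 1 FPKM in the stage 10 libraries only, 6 of 9, which is how it entered the test. It rose by 0.72 with stage (SE 0.156, adjusted p = 0.00343), to 2.86 times the stage 8 level. At stage 8 it rests on fewer implied fragments than any other of the 10. EcRts lay below wild-type stage 10 without overlap, but the difference of −0.23 did not pass (95% interval −0.59 to 0.13, adjusted p = 0.255). EcRts stood 0.49 above stage 8 (adjusted p = 0.0246). That call was kept in only 5 of 9 fits that leave out 1 library. It was lost with only the 2 groups compared (adjusted p = 0.0589). CG43218, a gene within the same span, was at 0.0828, 0.871 and 0.508 FPKM, in the same order of groups.

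Hr39, Hr4 and ftz-f1 encode further nuclear receptors of the cascade. Hr39 belongs to the same receptor family as ftz-f1 and is known to be required for secretion in the female reproductive tract (chromosome 2L, 21237250 to 21259675). It was at 13.5, 12.8 and 12.7 FPKM at stage 8, at 17.0, 20.6 and 17.3 at wild-type stage 10, and at 18.9, 18.9 and 20.3 in EcRts. Both stage 10 groups are above stage 8 and overlap each other. Hr39 rose by 0.46 with stage (SE 0.0748, adjusted p = 7.87e-04) under every alternative. The difference of 0.08 between EcRts and wild-type stage 10 did not pass (adjusted p = 0.389), although it did, at 0.20 to 0.27, under each of the 4 other scalings (adjusted p = 0.0288 to 0.04).

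Hr4, a nuclear receptor known in larvae for repression within the cascade (chromosome X, 1835973 to 1901989), differed with EcRts and not detectably with stage. It was at 2.44, 1.69 and 1.34 FPKM at stage 8, at 2.14, 2.37 and 1.88 at wild-type stage 10, and at 5.03, 4.06 and 4.45 in EcRts. The wild-type stages overlap and every EcRts library is above all wild-type libraries. Its mean level in EcRts was 2.12 times that in wild-type stage 10, a rise of 0.82 (SE 0.152, adjusted p = 0.00402) that held under every alternative in which it was tested. The stage difference was 0.16 (95% interval −0.19 to 0.51, adjusted p = 0.367). The summed muscle sheath markers given above are also highest in EcRts, and their part in the Hr4 result was not tested.

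ftz-f1 encodes an orphan nuclear receptor that in prepupae makes tissues competent for the next ecdysone pulse, and that is loaded into the egg as a partner of the segmentation protein Ftz (chromosome 3L, 18743707 to 18794409). It was at 50.8, 52.0 and 51.2 FPKM at stage 8, at 60.5, 69.6 and 61.4 at wild-type stage 10, and at 54, 52.7 and 54.7 in EcRts. Wild-type stage 10 is above both other groups, and EcRts is above stage 8 without overlap. ftz-f1 rose by 0.31 with stage (SE 0.0545, adjusted p = 0.00127), although not after quantile normalization (adjusted p = 0.0967) or median-of-ratios scaling (0.205). It fell by 0.24 in EcRts against wild-type stage 10 (SE 0.0545, adjusted p = 0.00936), and this call was lost under all 4 other scalings (adjusted p = 0.0813 to 0.639).

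Eip93F, known from metamorphosis as a regulator of cell death and of adult fates, encodes a Pipsqueak-family DNA-binding protein (chromosome 3R, 17774836 to 17837910). It was at 1.69, 2.14 and 1.49 FPKM at stage 8, at 2.81, 2.13 and 2.61 at wild-type stage 10, and at 0.929, 0.783 and 1.06 in EcRts. Every EcRts library is below all wild-type libraries, and the wild-type stages overlap. Eip93F reached 1 FPKM in every wild-type library but in EcRts only in replicate 3, so it entered the test through the wild-type libraries. In EcRts it was at 0.368 of the wild-type stage 10 level, a fall of 0.87 (SE 0.133, adjusted p = 0.00170) that held under every alternative in which it was tested. It was also below stage 8, by 0.52 (−0.52, adjusted p = 0.00946). The stage difference of 0.34 passed narrowly (adjusted p = 0.0474) and was lost in 14 of 19 alternatives. Among these were 7 of 9 fits that leave out 1 library, the replicate block (adjusted p = 0.0896) and the fit without filter (0.0583). Of the 4 other scalings 1 kept the call.

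Counted together, 6 of the 10 genes rose from stage 8 to wild-type stage 10 (usp, Eip74EF, Eip78C, Hr39, ftz-f1 and Eip93F) and 2 fell (br and Eip75B), against 49.2% and 18.9% of all tested genes. Between EcRts and wild-type stage 10, 2 were higher (usp and Hr4) and 3 lower (Eip74EF, ftz-f1 and Eip93F), against 9.93% and 33.9% of all tested genes. Between EcRts and stage 8, 5 were higher (usp, Eip74EF, Eip78C, Hr39 and Hr4) and 2 lower (Eip75B and Eip93F), against 39.8% and 21.6%. Here too Eip78C and Eip93F had passed the filter through groups where they were high, so their calls are not independent of it. In either direction 8, 5 and 7 of the 10 were called in the 3 comparisons, near the 68.2%, 43.8% and 61.4% of all tested genes. The median changes of the 10 were 0.29, 0.01 and 0.28, beside 0.20, −0.12 and 0.11 over all tested genes. The first comparison shares its wild-type stage 10 libraries with the second, so an opposite sign in both, as for Eip74EF and Eip93F, is not independent.

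**Figure D3:**
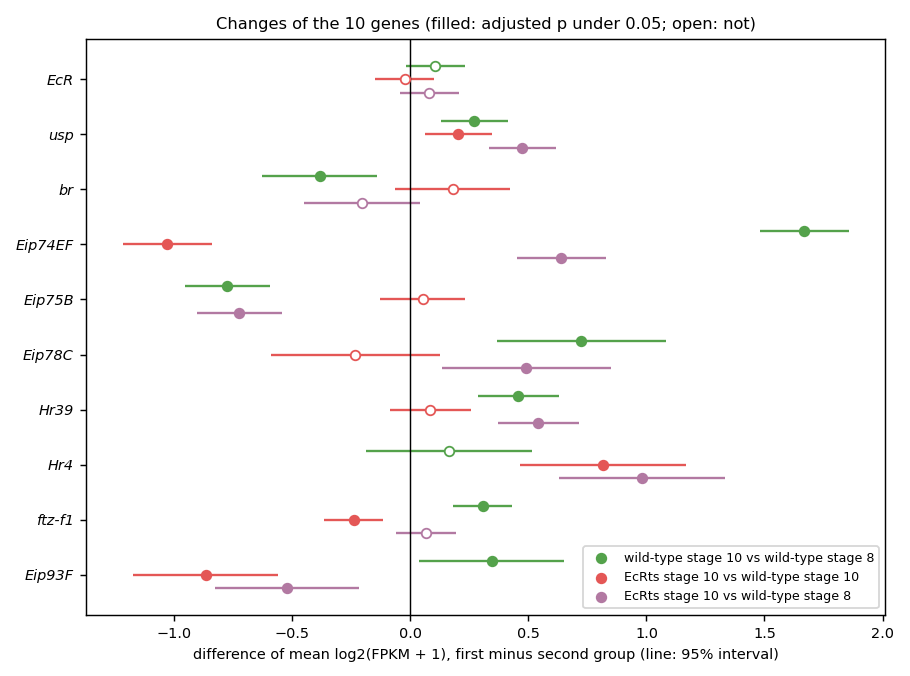
Difference of mean log2(FPKM + 1) (horizontal axis, first group minus second) for the 10 genes in the 3 comparisons, with 95% intervals as lines; filled points have an adjusted p under 0.05. Eip74EF has the largest change of the 10 in the stage comparison (1.67). In EcRts against wild-type stage 10 Eip74EF (−1.03) and Eip93F (−0.87) lie lowest, and their order turns with a pseudocount of 0.1 (−1.16 and −1.35).

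Some calls change with how libraries are put on a common scale. Higher genes made up 72.3% of all calls in the stage comparison as deposited, against 49.3% under median-of-ratios scaling, 50.8% after quantile normalization, 66.2% when scaled on protein-coding genes and 73.3% when scaled outside eggshell, yolk and noncoding genes. For EcRts against wild-type stage 10 the shares were 22.7%, 51.2%, 47.9%, 68.1% and 67.3% in that order. For EcRts against stage 8 they were 64.9%, 50.8%, 50.5%, 76.4% and 81.8%. Eip74EF, Eip75B, br, Eip78C and Hr39 kept their stage calls under all of these, and usp, Eip74EF, Hr4 and Eip93F their EcRts calls against wild-type stage 10. Of these, Eip78C and Eip93F passed the filter through the groups where they were high, so their calls are not independent of it.

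**Figure D4:**
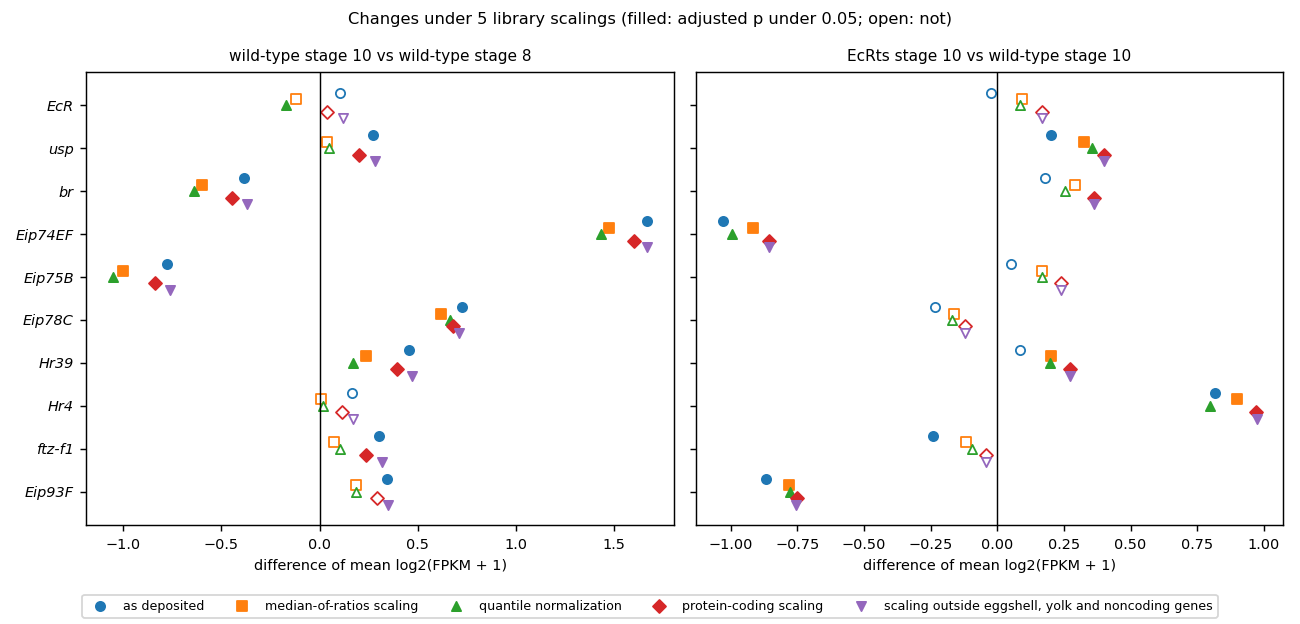
Difference of mean log2(FPKM + 1) (horizontal axis) for the 10 genes with the values as deposited and under 4 other library scalings, for wild-type stage 10 against stage 8 (left) and EcRts against wild-type stage 10 (right); filled symbols have an adjusted p under 0.05. Eip74EF stays at 1.43 to 1.67 on the left and −1.03 to −0.86 on the right, whereas EcR lies on both sides of 0 in both panels.

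Several of the loci share a chromosome arm. Of the 10 genes 3 lie on X, with 277.1 kb between br and Hr4 and 30.8 kb between Hr4 and usp. On 3L lie 4, with 331.6 kb between Eip74EF and Eip75B, 685.9 kb between Eip75B and ftz-f1 and 2425.3 kb between ftz-f1 and Eip78C. The neighbours on 3L went opposite ways with stage, Eip74EF higher and Eip75B lower, while Hr4 and usp were both higher in EcRts than in wild-type stage 10, by 0.82 and 0.20. In the current annotation br has 16 transcripts from 9 start sites and Eip75B 7 from 7, and EcR 6 from 4. The deposited gene-level values sum over the transcripts of the annotation they were made with, which can differ from these.

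Receptor coregulators and ecdysone uptake formed a list of 24 genes, of which 22 were tested. From stage 8 to wild-type stage 10, 12 rose and 3 fell (median 0.30), close to the 49.2% and 18.9% of all tested genes (median 0.20), and 7 to 12 rose and 3 to 5 fell under the 4 other scalings. They were led by rig, which encodes a nuclear receptor coregulator and went from 30.7 ± 1.98 to 62.6 ± 2.50 FPKM (1.01, adjusted p = 5.56e-06). Among genes for subunits of the NURF remodelling complex, Caf1 (0.63, adjusted p = 1.02e-04), E(bx) (0.60, 8.97e-05) and Iswi (0.31, 8.6e-04) rose. Nurf-38 fell by 0.24 (adjusted p = 0.00275). Iswi and Nurf-38 are named here after their values were seen. The chaperone Hsc70-4 fell by 0.52 (adjusted p = 1.07e-04). In EcRts against wild-type stage 10, 3 rose and 9 fell (median −0.11), beside 9.93% and 33.9% of all tested genes (median −0.12). Hsp83, the fly Hsp90, fell from 2331 ± 128 to 1638 ± 32.6 FPKM (−0.51, adjusted p = 0.0102). The remodelling ATPase Iswi fell by 0.44 (adjusted p = 5.54e-04), rig by 0.43 (9.06e-04) and Caf1 by 0.42 (0.00264). Nurf-38 rose by 0.29 (adjusted p = 0.00243), while E(bx) fell (−0.27, adjusted p = 0.0121). tai, which encodes an EcR coactivator and is named after its values were seen, went from 12.6 ± 1.09 to 9.86 ± 0.116 FPKM (−0.32, adjusted p = 0.00534). Under the 4 other scalings 7 to 8 of the list rose in EcRts and 3 to 6 fell, so the balance of this list is not settled.

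Of 14 other nuclear receptor genes 5 were tested, and the remaining 9 had group means below 1 FPKM. With stage 1 rose, Hnf4 (19.0 ± 1.99 to 24 ± 0.697 FPKM, 0.32, adjusted p = 0.00365), and 0 fell, beside 49.2% and 18.9% of all tested genes. Under the 4 other scalings 0 to 1 of the list rose and 0 to 3 fell. In EcRts against wild-type stage 10, 2 were higher and 1 lower, beside 9.93% and 33.9% of all tested genes. Hr46 (now Hr3), which in prepupae activates ftz-f1, was at 5.78 ± 0.525 FPKM in EcRts against 3.46 ± 0.178 in wild-type stage 10 (0.60, adjusted p = 0.0212). Hr96, a xenobiotic and sterol sensor, was 0.28 higher (adjusted p = 0.0208). Hr78 was lower by 0.21 (−0.21, adjusted p = 0.00720), and of this list none was lower (0) under the 4 other scalings.

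The last list held 26 other genes linked to ecdysone, of which 25 were matched and 14 tested. With stage 5 rose and 4 fell (median 0.01), beside 49.2% and 18.9% of all tested genes (median 0.20), and 2 to 5 rose and 4 to 7 fell under the 4 other scalings. Cyp18a1, which inactivates ecdysone, rose by 1.11 (adjusted p = 1.10e-04) and the caspase gene Nc (now Dronc) by 1.01 (adjusted p = 2.80e-06). Kr-h1, known as a juvenile hormone response gene, fell from 9.26 ± 2.20 to 3.52 ± 1.02 FPKM (−1.19, adjusted p = 8.06e-04), and vri, a bZIP repressor of the circadian clock, fell by 0.92 (adjusted p = 5.00e-04). In EcRts against wild-type stage 10, 1 rose and 7 fell (median −0.15), beside 9.93% and 33.9% of all tested genes (median −0.12), and 3 to 4 rose and 5 to 6 fell under those scalings. ImpL2, whose product binds insulin-like peptides, was at 86.4 ± 9.98 FPKM in wild-type stage 10 and at 43.7 ± 2.87 in EcRts (−0.96, adjusted p = 0.00100). Cyp18a1 fell by 0.57 (adjusted p = 0.00869), the cell death gene W (now hid) by 0.52 (0.00174) and the zinc finger gene ttk by 0.45 (0.00100). The first of these, Cyp18a1, had the same order of group levels as Eip74EF, at 7.32 ± 1.56, 16.7 ± 0.688 and 11.0 ± 0.689 FPKM. This order was not particular to Cyp18a1. Nc of the same list had it too (21.2, 43.7 and 33.1 FPKM), as had rig of the coregulator list (30.7, 62.6 and 46.1). By group mean, ImpL2, W and ttk were instead lowest in EcRts. How common the order is among all tested genes was not tested.

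**Figure D5:**
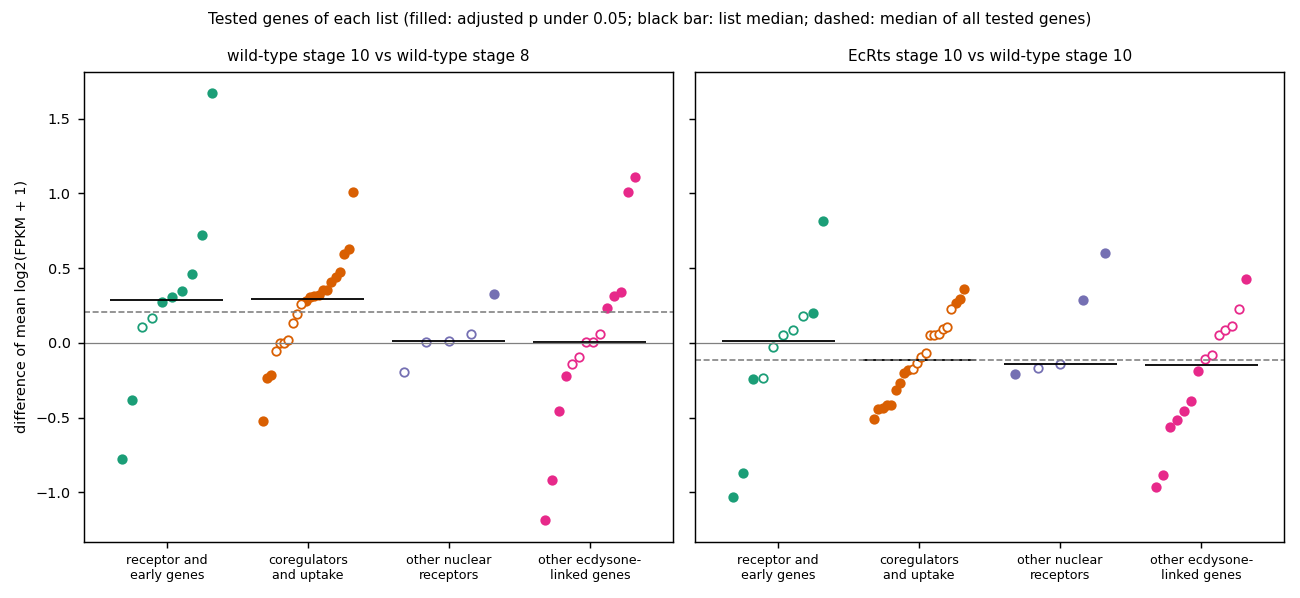
Difference of mean log2(FPKM + 1) (vertical axis) of each tested gene of the 10 and of 3 lists, for wild-type stage 10 against stage 8 (left) and EcRts against wild-type stage 10 (right); filled points have an adjusted p under 0.05, black bars are list medians and dashed lines the medians of all tested genes (0.20 and −0.12). The 10 genes spread from −0.78 to 1.67 on the left and from −1.03 to 0.82 on the right.

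For the 4 of the 10 whose group means range most on the log2(FPKM + 1) scale, the genes of most similar course over the 9 libraries were found by the root mean square distance between centred log2(FPKM + 1) profiles, among 6287 protein-coding genes. This is a description without a test. Nearest to Eip74EF was CG33056, named Targ2 in the current annotation, at 8.36, 28.4 and 13 FPKM in the 3 groups (distance 0.0928), followed by CG13609 (0.120) and Lac (0.141). Nearest to Eip93F were both ferritin subunit genes, Fer2LCH at 284, 367 and 219 FPKM (0.0912) and Fer1HCH at 299, 396 and 240 (0.113), and then the lipase gene bmm at 28.5, 38.2 and 21.6 (0.122). Nearest to Eip75B were CG6550 at 26.5, 15.8 and 15.5 FPKM (0.0704), CG9630 (0.0727) and Pino (0.0741). The nearest to Hr4 lay farther off, with CG3386 at 8.16, 8.52 and 15.9 FPKM (0.139), CG7800 (0.173) and fz (0.186), and fz, a Wnt receptor gene, stood at 8.80, 13.5 and 22.1.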

How the data were processed

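Gene-level FPKM were deposited by the authors for 9 libraries, with confidence limits and a status per gene. Cufflinks 2.02, TopHat2 2.0.7, Bowtie2 2.0.6, CASAVA 1.8.2 and the build dm3 stand in the submitters' processing notes, and the labels' protocols name poly(A) selection and the TruSeq v2 kit. The sources used here do not give the annotation release or strand setting. No 2 libraries held identical values (0 pairs). Implied fragments were derived from the limits, taken as 2 errors of a count.

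The test took the 8336 genes that reached 1 FPKM in 3 or more libraries, without 93 genes whose estimate had failed and is listed at 0. All 10 genes passed. limma 3.58.1 (R 4.3.3) fitted 1 mean per group to log2(FPKM + 1) of all 9 libraries with an intensity trend and 6 residual degrees of freedom, two-sided. The pseudocount of 1 understates changes of low genes. The code was tested on simulated data. Ratios within libraries are given as values. A current annotation, used for names, exons and start sites only, matched 14926 identifiers; br was matched by symbol. Tables and figures used Python 3.11.15, numpy 2.4.6, pandas 2.3.3, scipy 1.17.1 and matplotlib 3.10.9.

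The genes and lists were chosen with earlier results of these data known. Named are all 10 genes; per list up to 4 called genes with the largest change in each of the first 2 comparisons and at least 5 FPKM in the higher group; and the 3 nearest profiles of the 4 genes of widest range. Sequences are not analysed here. Alternatives were 4 library scalings, 2 pseudocounts, no filter, a filter at 5 FPKM, no trend, only the 2 groups compared, a replicate block and leaving out each library.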

Additional observations from a re-analysis of the deposited data

How the results depend on the processing

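Of 30 results (10 genes in 3 comparisons), 17 kept their direction and side of the threshold under every alternative. The direction of EcR depended on the scaling. From stage 8 to wild-type stage 10 it was −0.12 with median-of-ratios scaling and −0.17 with quantile normalization (adjusted p = 0.00904), against 0.11 as deposited. For EcRts against wild-type stage 10 it was 0.0934 and 0.0859 with these and 0.17 when scaled on protein-coding genes or outside eggshell, yolk and noncoding genes, and −0.0533 to 0.0255 when 1 library was left out, positive without wild-type stage 10 replicate 2. For EcRts against stage 8 it was −0.0265 and −0.0861 with median-of-ratios scaling and quantile normalization, and ftz-f1 was −0.0442 with the former. As deposited neither gene passed (EcR 0.08, adjusted p = 0.230, and ftz-f1 0.07, 0.325). Both passed as higher in EcRts under the remaining 2 scalings. With protein-coding scaling EcR was at 0.21 (adjusted p = 0.0188) and ftz-f1 at 0.20 (0.0232). Scaled outside eggshell, yolk and noncoding genes they were at 0.29 (0.00499) and 0.28 (0.00564). The cause was not tested.

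The count of the 10 genes that rose with stage was 3 with median-of-ratios scaling and 3 with quantile normalization, against 6. Of the 8336 tested genes, 2598 and 2626 rose under these, against 4105. The count higher in EcRts than in wild-type stage 10 was 4 with protein-coding scaling, 4 with scaling outside eggshell, yolk and noncoding genes, 1 with the 5 FPKM filter, 1 with only the 2 groups compared and 1 to 3 when 1 library was left out, against 2. Of the 8336 tested genes, 2248 and 2099 were higher under those 2 scalings, against 828. It was 667 of 7239 with the filter, 792 with only the 2 groups and 568 to 813 with 1 library left out. The filter drops Hr4, Eip78C and Eip93F, and with it 3 were higher and 1 lower in EcRts than at stage 8. Of the 7239 genes tested with it, 3053 were higher and 1529 lower there.

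Replicate numbers were not shown to pair libraries: deviations of same-numbered libraries correlated at −0.04 to 0.24, 2 of 9 above 0.1, and 4 of 9 libraries correlated best with their own number. With a replicate block 5550, 3336 and 4931 genes were called in the 3 comparisons, against 5681, 3654 and 5118, with 5, 3 and 5 of the 10 genes higher and 2, 3 and 3 lower. Of the 8336 tested genes, 4030, 749 and 3190 were higher with the block and 1520, 2587 and 1741 lower. Depth limits Eip78C most.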
